A study of Mus musculus with 10 samples.

Results

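Wnt11, Wnt4, Dkk1 and Tcf7 are 4 genes of the Wnt pathway, of 634 mouse genes that could be named in this series, and each was measured by 1 listed probe set on each of 2 array types, 8 probe sets in all. A probe set is a group of short oligonucleotides on an Affymetrix array that together report one transcript. The members were found by gene symbol and Entrez identifier in the authors' deposited comparison tables, and both ways of matching gave the same 8 probe sets. Those tables hold only probe sets that passed the authors' filter for a change with GDNF. A gene that is absent from them has no named probe set here, and the direction of every member was in effect fixed by being listed. Any further probe set of the 4 genes that did not pass the filter is likewise unnamed and could not be examined. The changes below are therefore descriptions of genes already selected on these arrays, and their p-values give no independent support.

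The RNA came from E11.5 ureteric buds, the epithelial outgrowths that branch into the kidney's collecting system, of Swiss Webster mice. The isolated buds were kept in Matrigel, a basement membrane extract. The plus GDNF groups received GDNF, the ligand of the Ret receptor, at 100 ng/mL for 16 h, and the minus GDNF groups spent 16 h without it. Each array carried a pool of RNA from about 5 to 6 batches of 30 to 40 buds, so a value is an average over many embryos. Of the 10 arrays, 5 were U74Av2 and 5 were 430A, each type with 3 plus GDNF and 2 minus GDNF arrays. In the embryo the bud is surrounded by metanephric mesenchyme, and how much of it remained on the isolated buds is not given in the labels.

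Wnt proteins are secreted ligands that bind Frizzled receptors and their co-receptors Lrp5 and Lrp6. In the canonical branch of the pathway beta-catenin is then stabilised and enters the nucleus, where it acts through DNA-binding factors of the TCF/LEF family. In the developing kidney Wnt11 is made at the tips of the branching bud, and Wnt4 is best known as the signal by which condensed mesenchyme turns into nephron epithelium. Dkk1 is a secreted antagonist that binds the co-receptors, and Dkk1 and Tcf7 are also known as transcriptional targets of beta-catenin in several tissues. Tcf7, also called TCF-1, is a TCF/LEF factor that binds DNA through an HMG box.

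The stretches of DNA just before the annotated starts of the 2 ligands and of Dkk1 are printed because TCF/LEF factors such as Tcf7 bind a short motif that can be searched for in them. The sequences are from RefSeq on GRCm38.p6, on the strand of the gene, and end at the base before the gene's outermost annotated start. The Wnt11 stretch is chr7:98834862-98835083 on the plus strand, the Wnt4 stretch chr4:137277385-137277634 on the plus strand, and the Dkk1 stretch chr19:30549497-30549746 on the minus strand. Capitals mark the TCF/LEF motif searched, which was the string CTTTG followed by any pair of the letters A and T, on either strand. In Wnt11 it stands as its reverse complement.
Wnt11: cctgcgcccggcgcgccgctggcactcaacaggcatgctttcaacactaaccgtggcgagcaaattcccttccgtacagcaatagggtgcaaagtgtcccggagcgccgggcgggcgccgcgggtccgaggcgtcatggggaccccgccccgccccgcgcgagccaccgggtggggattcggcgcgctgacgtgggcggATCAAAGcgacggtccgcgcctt
Wnt4: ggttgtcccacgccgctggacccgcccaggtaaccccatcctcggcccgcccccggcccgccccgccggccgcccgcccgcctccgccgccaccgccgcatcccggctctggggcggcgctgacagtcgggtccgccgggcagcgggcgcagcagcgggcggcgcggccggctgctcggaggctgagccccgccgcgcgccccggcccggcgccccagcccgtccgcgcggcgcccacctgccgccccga
Dkk1: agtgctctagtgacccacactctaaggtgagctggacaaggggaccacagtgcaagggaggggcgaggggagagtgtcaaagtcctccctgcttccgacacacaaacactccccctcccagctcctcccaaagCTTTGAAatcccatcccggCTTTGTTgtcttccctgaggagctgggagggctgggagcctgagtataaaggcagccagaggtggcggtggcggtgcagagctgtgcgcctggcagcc

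Dkk1 held 2 matches, Wnt11 held 1 and Wnt4 held 0. Over all 32851 RefSeq windows of 250 bases before a start, 14.8% held at least 1 match and 1.43% held 2 or more. The printed Wnt11 stretch, at 222 bases, is shorter than these windows. Wnt11 has 2 such windows, and the motif occurred in 1 of them. Tcf7 has 2 annotated starts in the table, both of which lie inside the gene's outermost bounds. Too little of either window lay before the outermost start, so no stretch is printed for Tcf7. Its windows held 0 TCF/LEF matches. The ETS motif CCGGAAG, read by factors of the family of Etv4 and Etv5, was searched on both strands too, and of the 4 genes it occurred in a Tcf7 window, once. That motif occurred in 6.91% of all windows. A match is a string of letters and does not show that a factor binds there.

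Wnt11, the ligand of the bud tip, was higher with GDNF on both array types. On 430A its intensity was 1876, 1393 and 1103 on plus GDNF arrays 1, 2 and 3, and 636 and 755 on minus GDNF arrays 1 and 2. The lowest plus array lay 1.46-fold above the highest minus array, while the plus arrays themselves spanned 1.70-fold. The groups thus did not overlap, like 14.9% of all 430A probe sets that were higher in this way, and the gap between them was narrower than the range within the treated group. The log2 change was 1.04 ± 0.23 (SE, limma), with a 95% interval from 0.47 to 1.60, and it did not pass the test over all 19521 probe sets (adjusted p = 0.162).

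On U74Av2 the picture for Wnt11 was steeper. Its intensity was 1019.55, 838 and 723 on the plus arrays and 39.2 and 30.25 on the minus arrays. Both minus values lay below the intensity floor of 65.0, the 20th percentile of that table, under which values were not ordered. All plus arrays were far above the floor, and both minus arrays were below it. The groups did not overlap, beside 17.3% of all U74Av2 probe sets in this direction. Against the floor Wnt11 was at least 13.1-fold higher with GDNF (log2 at least 3.71, limma adjusted p = 0.0107 over 10588 probe sets), and no other probe set on that type had a larger rise. Set to the floor, both minus arrays held the same value, so they added no spread to the error of this test. The authors' deposited table gives 27.37-fold with bounds of 15.98 and 76.07, against untreated values below the floor. On 430A the authors' deposited table gives 2.12-fold with bounds of 1.47 and 3.02. Leaving out single U74Av2 arrays ended this call in 4 of 5 cases, with an adjusted p of 0.0802 without plus array 1, 0.0859 without plus array 2, 0.207 without minus array 1 and 0.26 without minus array 2. Without plus array 3 it was 0.023.

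The order of the treated arrays was the same on both types for Wnt11, with sample 1 highest and sample 3 lowest. The minus arrays did not share an order that can be read, since both sat below the floor on U74Av2. In the untreated buds Wnt11 stood at 696 ± 84.3 (SD, n = 2) without GDNF on 430A, well above that table's floor of 143, and at 34.7 ± 6.31 (SD, n = 2), below the floor, on U74Av2. The authors' deposited tables list a different sequence record for each of the 2 probe sets. Whether the probes see different transcripts, or background, was not tested.

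**Figure D1:**
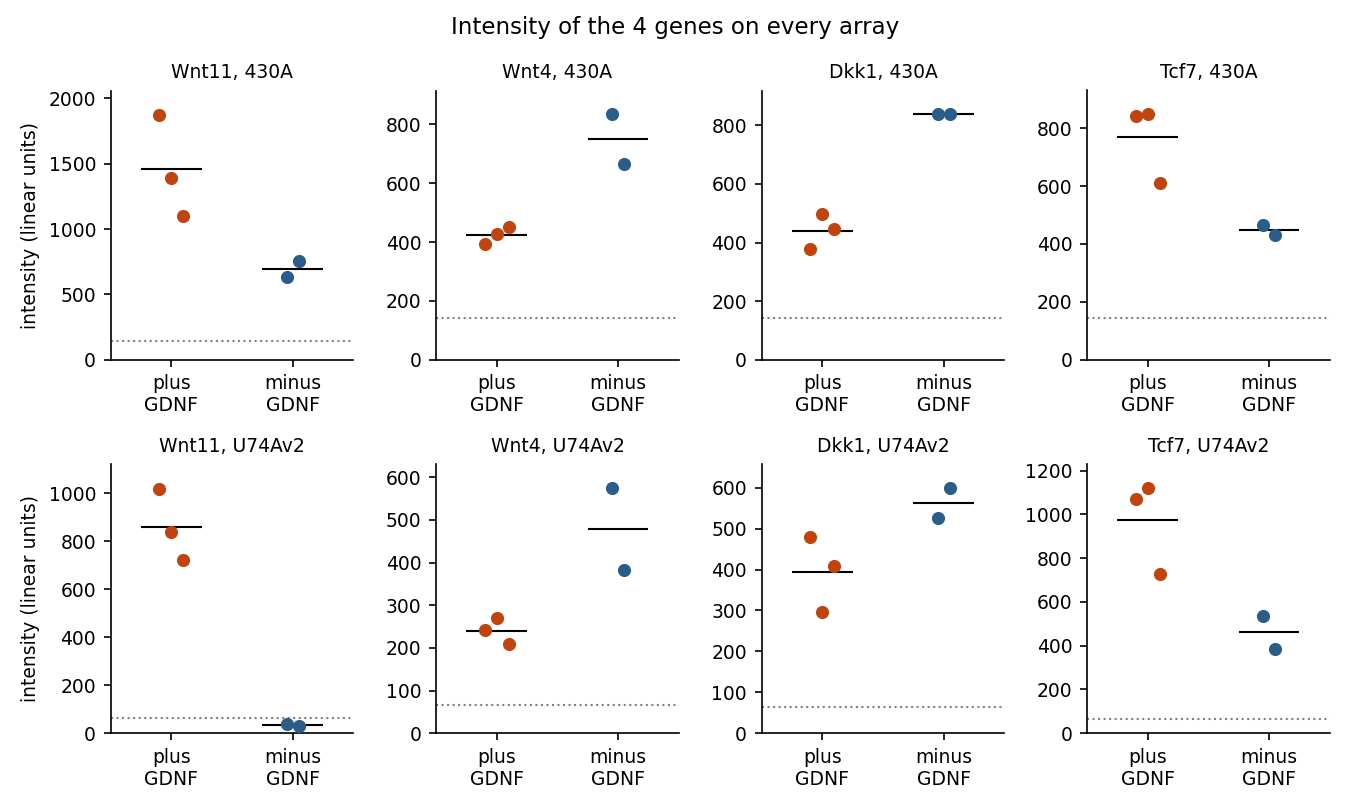
Deposited intensity (linear units, axis from 0) of the 4 genes on every 430A array (top) and U74Av2 array (bottom). Points are single arrays, 3 plus GDNF in orange and 2 minus GDNF in blue, placed by sample number from left to right. Black bars are group means, and the dotted line is the intensity floor of 143 on 430A and 65.0 on U74Av2. Only Wnt11 on U74Av2 has arrays below the floor.

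Wnt4, the other Wnt ligand with a named probe set, was lower with GDNF on both types. On 430A it measured 393, 428 and 451 on the plus arrays and 837 and 667 on the minus arrays. On U74Av2 it measured 242, 269 and 209 with GDNF and 575 and 382 without. The groups did not overlap on either type, beside 14.9% of 430A and 4.92% of U74Av2 probe sets that were lower in this way. The treated arrays were the tighter group, spanning 1.15-fold on 430A and 1.29-fold on U74Av2 against 1.26-fold and 1.51-fold among the untreated. Minus array 1 was the higher of the untreated pair on both types.

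The log2 change of Wnt4 was -0.82 ± 0.13 (SE, limma, adjusted p = 0.0966) on 430A and -0.97 ± 0.22 (SE, limma, adjusted p = 0.274) on U74Av2, so it passed the threshold on neither type alone. As a fold it stood 1.76-fold and 1.96-fold lower. Of all probe sets tested, 28 on 430A and 11 on U74Av2 had a larger fall. The changes of the Wnt ligands that could be named thus lay on opposite sides of 0, and no other gene of the list of 19 Wnt ligands had a named probe set on either type.

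Dkk1, the secreted antagonist, was also lower with GDNF. On 430A it measured 378, 496 and 447 on the plus arrays, and the minus arrays were nearly identical at 840.4 and 839.9. The lowest untreated array was 1.69 times the highest treated one. On U74Av2 it measured 479, 296 and 409 with GDNF and 527 and 600.0 without. There the groups were separated by only 1.10-fold, less than the 1.62-fold range among the treated arrays, and the array that was highest with GDNF on one type (sample 2 on 430A, sample 1 on U74Av2) was the lowest on the other.

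The log2 change of Dkk1 was -0.94 ± 0.14 (SE, limma, adjusted p = 0.0809) on 430A, where 11 of 19521 probe sets had a larger fall. On U74Av2 it was -0.54 ± 0.23 (SE, limma, adjusted p = 0.596), and its 95% interval, from -1.11 to 0.03, reached 0. Without U74Av2 plus array 2 that change was -0.34. Dkk1 on U74Av2 was thus the 1 member probe set whose interval held 0. Its bound in the authors' deposited table there, -1.23-fold, was also the closest of the 8 to the authors' limit of 1.2, followed by Wnt4 on U74Av2 at -1.25.

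Tcf7, the TCF/LEF factor, was higher with GDNF. On 430A it measured 843, 851 and 611 on the plus arrays and 466 and 433 on the minus arrays. On U74Av2 it measured 1071, 1119 and 728 with GDNF and 537 and 387 without. The groups did not overlap on either type, and on both types plus array 2 was the highest, plus array 3 the lowest of the treated and minus array 2 the lowest of all. The lowest treated array was 1.31 times the highest untreated one on 430A and 1.36 times on U74Av2. The log2 change was 0.76 ± 0.17 (SE, limma, adjusted p = 0.164) and 1.07 ± 0.25 (SE, limma, adjusted p = 0.284), or 1.69-fold and 2.10-fold. The other TCF/LEF factors, Tcf7l1, Tcf7l2 and Lef1, had no named probe set.

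Groups that did not overlap were common on these arrays, and the listing of the members used the same contrast, so nothing is read from their own separation. On 430A, 14.9% of probe sets tested had every plus array above every minus array, and 14.9% had every plus array below. On U74Av2 these shares were 17.3% and 4.92%. The authors' deposited tables list 2.39% of the 430A and 2.19% of the U74Av2 probe sets as higher, and 0.665% and 0.312% as lower. By limma's adjusted p under 0.05, 0% of probe sets were called on 430A, where 2588 had an unadjusted p under 0.05. On U74Av2 0.00944% were called, a single probe set, which was that of Wnt11. On 430A the unadjusted p was below 0.05 for all 4 members, beside 8.21% of all probe sets as higher and 5.05% as lower. On U74Av2 it was below 0.05 for Wnt11, Wnt4 and Tcf7 and 0.0603 for Dkk1, beside 7.77% as higher and 1.02% as lower.

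**Figure D2:**
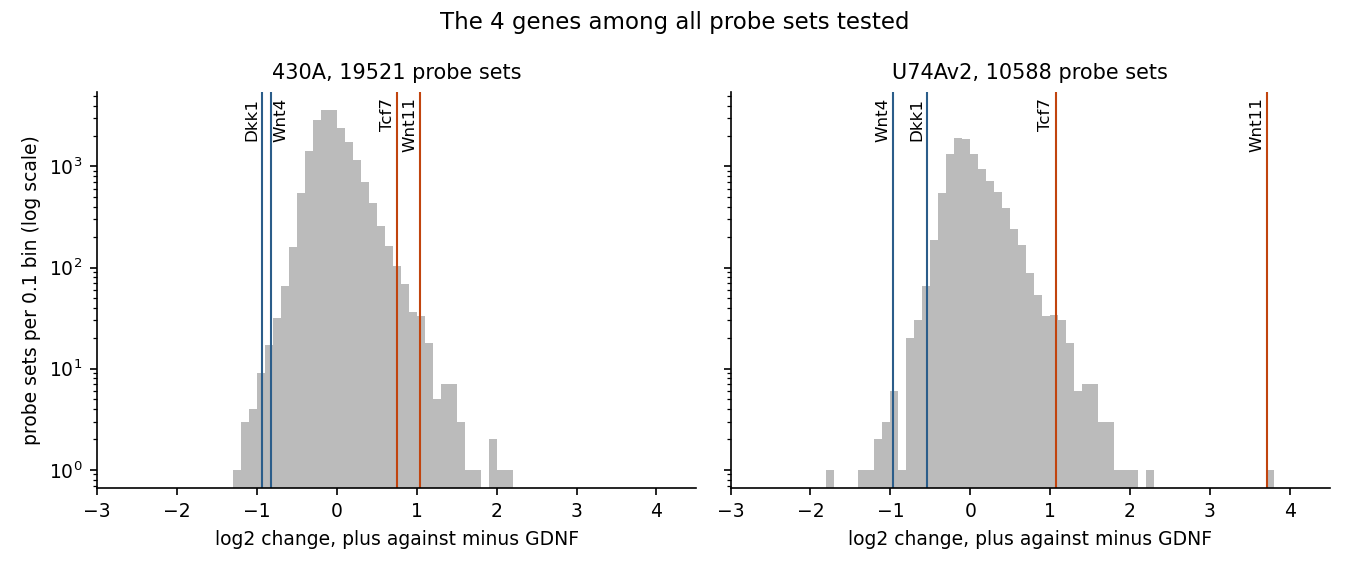
Number of probe sets (log scale) in bins of 0.1 of the log2 change, plus against minus GDNF, for all 19521 probe sets tested on 430A (left) and 10588 on U74Av2 (right). Vertical lines mark the 4 genes, orange where higher and blue where lower with GDNF. Wnt11 on U74Av2, a lower bound of 3.71, stands beyond all other probe sets, while Tcf7 has 221 probe sets with larger rises on 430A and 90 on U74Av2.

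The change over both array types was fitted in limma on the 184 genes named on both, with array type as a term. Wnt11 rose (log2 at least 2.37, adjusted p = 0.00477) and Tcf7 rose (log2 0.91 ± 0.16 SE, adjusted p = 0.00487). Wnt4 fell by 0.90 ± 0.13 SE (adjusted p = 0.0014) and Dkk1 fell by 0.74 ± 0.14 SE (adjusted p = 0.0126) on the log2 scale. In that fit 88% of the genes were called as higher and 11.4% as lower, so a call there says little about these 4. Where arrays of 1 sample name were treated as correlated across the types, the adjusted p was 0.163 for Wnt11 and 0.277 for Dkk1. Dkk1 also missed the threshold without 430A minus array 1 (adjusted p = 0.0709) or minus array 2 (adjusted p = 0.0793).

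The difference between the types was tested as an interaction in the same genes, of which 0.543% were called. The call was Wnt11, whose log2 change on U74Av2 exceeded that on 430A by at least 2.67 (limma adjusted p = 1.72e-04). For the other members the difference, U74Av2 minus 430A, was -0.15 ± 0.26 SE for Wnt4 (adjusted p = 0.893), 0.40 ± 0.27 SE for Dkk1 (adjusted p = 0.833) and 0.31 ± 0.31 SE for Tcf7 (adjusted p = 0.859). These errors are wide, so equal change on the types is not shown. Leaving out single arrays moved the Wnt4 difference between -0.45 and 0.14, across 0, and the Tcf7 difference between 0.074 and 0.55. For Wnt11, raising the floor to the 40th percentile gave a difference of at least 1.37 (adjusted p = 0.149).

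**Figure D3:**
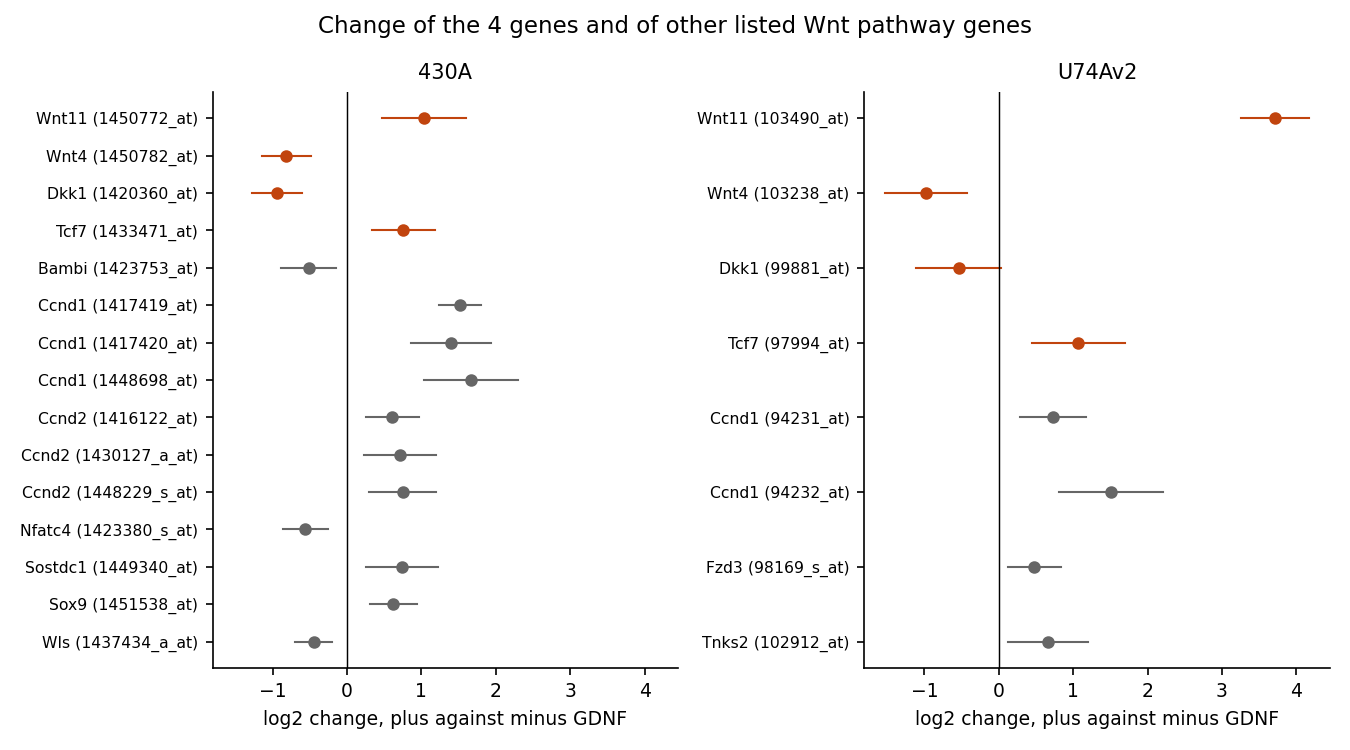
Log2 change, plus against minus GDNF, with 95% intervals from limma, for the 4 genes (orange) and for the other probe sets of the Wnt gene lists that could be named (grey; those of 1 gene are not shown), on 430A (left) and U74Av2 (right). The Wnt11 value on U74Av2 is a lower bound set by the floor, and the interval of Dkk1 on U74Av2 reaches 0.03.

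Of 132 other Wnt pathway genes on the lists used here, 10 could be named on at least 1 type. On 430A 8 were named, 4 higher and 4 lower with GDNF, with a median log2 change of 0.09 beside 0.62 for all named probe sets and -0.07 for all probe sets tested. On U74Av2 4 were named, 3 higher and 1 lower, with a median of 0.57 beside 0.80 and -0.04. On neither type did any of them pass the adjusted threshold, and all 12 and 5 of their probe sets had an unadjusted p under 0.05, as the authors' selection favours.

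By role, the ligand side beside the members held Wls, the carrier that brings Wnt ligands to the cell surface. Wls measured 797, 808 and 794 with GDNF and 1166 and 1021 without on 430A, a log2 change of -0.45 ± 0.10 SE. Of 28 receptor and receptor turnover genes Fzd3, a Frizzled receptor, was named, on U74Av2, at log2 0.48 ± 0.14 SE. Among the antagonists Sostdc1, a secreted inhibitor of BMP and Wnt signals, stood at log2 0.74 ± 0.20 SE on 430A, opposite in sign to Dkk1. It measured 235, 191 and 305 with GDNF, while both untreated arrays, at 111 and 117, lay below the floor of 143, so this change is a lower bound. Inside the cell, Tnks2, a tankyrase that acts on Axin, stood at log2 0.66 ± 0.22 SE on U74Av2, and Nfatc4, a calcium-regulated transcription factor, at -0.56 ± 0.12 SE on 430A.

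Of 26 listed beta-catenin targets, Dkk1 and Tcf7 among them, 7 were named on 430A, 4 higher and 3 lower. Of all probe sets in the authors' deposited 430A table, 542 were higher and 151 lower. Ccnd1, cyclin D1, stood between log2 1.40 and 1.67 over its 3 probe sets on 430A and at 0.72 and 1.50 on U74Av2. Ccnd2, another D-type cyclin, stood between 0.61 and 0.75 over 3 probe sets, and the transcription factor Sox9 at 0.62. Bambi, a decoy receptor of the TGF-beta family, stood at -0.51 on 430A, and 1 further target counted here is not described. The listed targets thus lay on both sides of 0, as Tcf7 and Dkk1 did.

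Markers of the bud and of other cells moved beside the members. Of 18 bud epithelium markers 7 were named on 430A, 3 higher and 4 lower with GDNF. Beside them, the authors' deposited 430A table lists 542 probe sets as higher and 151 as lower. Ret, the GDNF receptor, stood at log2 1.49, Calb1, known from bud and duct epithelium, at 0.72 and 0.63 by its 2 probe sets, and Lhx1 at 0.64. The 0.63 of Calb1 is a lower bound, since both untreated arrays, at 133 and 94.0, lay below the floor. Cdh16, Krt7, Krt8 and Npnt were the lower ones, between -0.92 and -0.49. The summed intensity of all 7, in which the bright Cdh16 and Krt8 probe sets weigh most beside Calb1, ranged from 17432 to 19368 with GDNF and from 21394 to 22353 without. On U74Av2 Calb1 and Ret were the bud markers named, and their sum was higher with GDNF, at 3616 to 4549 against 1680 to 2184. The brighter Calb1 probe set on 430A measured 6292, 6200.4 and 5472 with GDNF and 4096 and 3226 without, so Calb1, like Ret, was higher with GDNF on both types. Of 12 metanephric mesenchyme markers Cdh11 and Cited1 were named, with sums of 709.99 to 852 with GDNF and 1122 to 1130.2 without. Of 13 stromal markers Postn, Tcf21 and Vim were named on 430A, with sums of 1464 to 2018 with GDNF and 2796 to 2798 without. On 430A the named mesenchymal and stromal markers thus had lower sums with GDNF, and none of them passed the threshold. They could be named only because they had passed the authors' filter on the same contrast. On U74Av2 the groups overlapped for Acta2, the 1 stromal marker named there, at 399 to 513 with GDNF and 507 to 705 without. None of the named markers was at 0, and the other mesenchymal markers, Six2 among them, were not analysed here. Of the early nephron markers beside Wnt4, Lhx1 alone was named, and it was higher with GDNF, at 437 to 453 against 262 to 316. The part of other cells in the changes of Wnt4 and Dkk1 was not tested, and in bulk RNA fewer cells of a type and less RNA per cell cannot be told apart.

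The genes whose profile over the 10 arrays was most like each member's were found among the 183 other genes named on both types. The measure was the root mean square difference of log2 values, each type centred on its mean, and a smaller value means a closer profile. Tcf7 had the closest neighbours, the uridine kinase Uck2 at 0.0968, the ribosome assembly factor Rrs1 at 0.105 and the transcription factor Nfib at 0.109, against a root mean square of 0.506 for Tcf7's own profile. That value was 0.475 for Wnt4 and 0.419 for Dkk1. Wnt4 lay closest to the Notch-related membrane protein Dlk1 (0.165), the surface protein Thy1 (0.178) and C1qtnf12 (0.199). Dkk1 lay closest to the matrix protein Sparc (0.203), the nucleoside transporter Slc29a1 (0.204) and Nrep (0.210).

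The measure grows with the size of a profile, and for Wnt11, whose U74Av2 minus arrays sit at the floor, both were larger. The closest genes were the mitochondrial arginase Arg2 (0.653) and the chemokine receptor Cxcr4 (0.677), beside a root mean square of 1.35 for Wnt11 itself. Both minus arrays of Cxcr4 lay below the floor on each type and were set to it, which also shapes its profile. With the sign turned, the gene closest to Wnt11 was Wnt4 (0.984), followed by Dlk1 (1.03) and Tmprss2 (1.04). Turned, Wnt4 lay closest to Ahcy (0.152), Slc4a7 (0.155) and Ttk (0.157), Dkk1 to Cstf2 and Nop58 (both 0.206) and Tk1 (0.207), and Tcf7 to Tmprss2 (0.156), Hspa1b (0.174) and Ncam1 (0.184). Among the members themselves, Wnt4 and Dkk1 differed by 0.333, and Dkk1 and the turned profile of Tcf7 by 0.312. These values describe 10 arrays that share 2 conditions, and all genes compared had been selected for the same contrast.

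**Figure D4:**
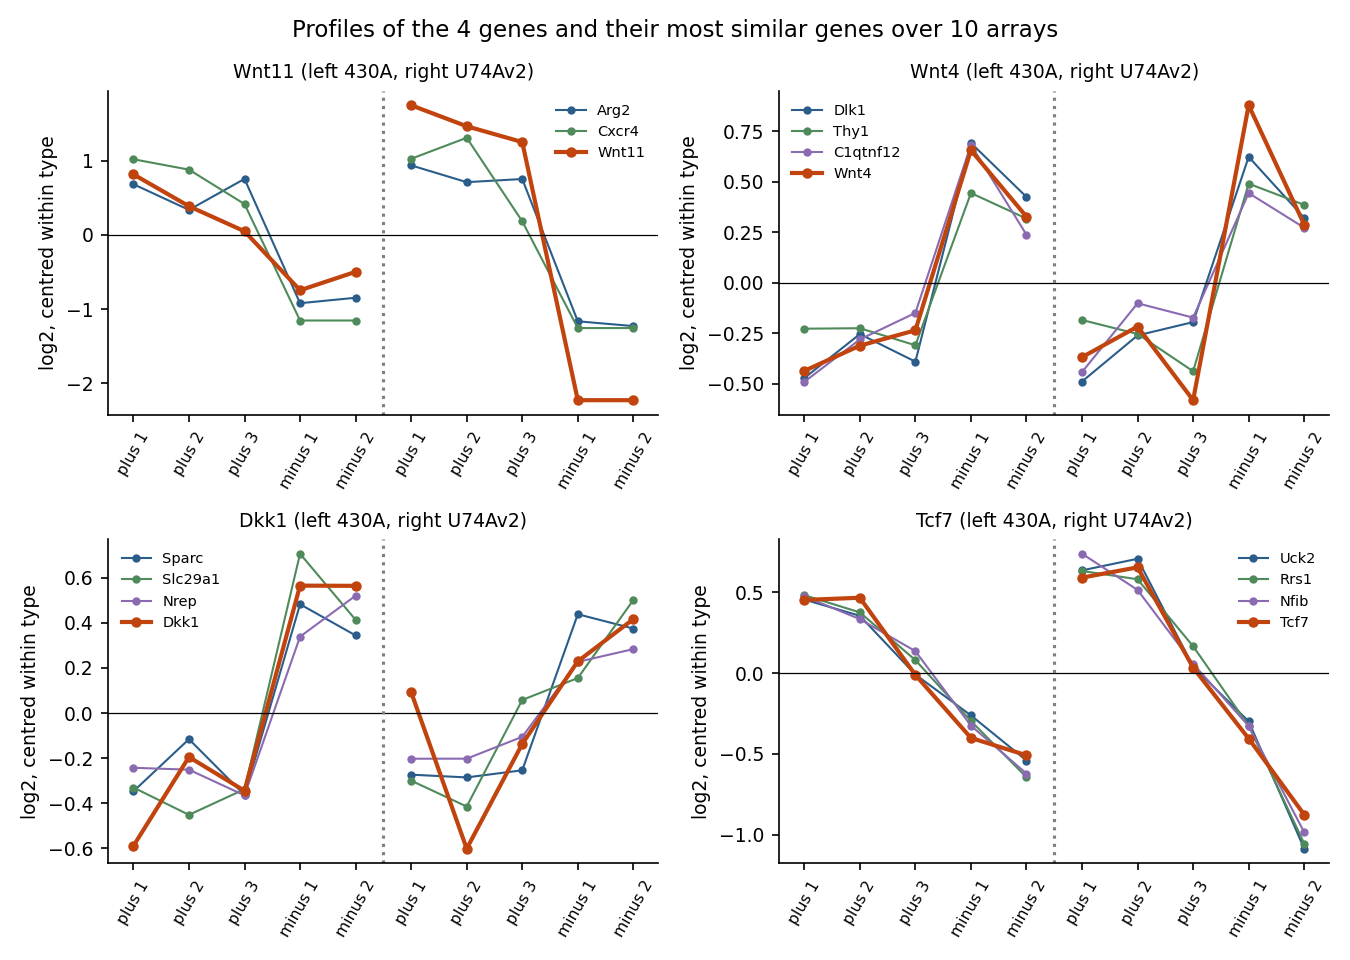
Log2 intensity, with values below the floor set to it, centred on the mean of the 5 arrays of each type, for each of the 4 genes (thick orange) and its most similar genes (thin lines; 2 for Wnt11, 3 for each of the others). Arrays are 430A left and U74Av2 right of the dotted line, and the lines joining them carry no order. Tcf7 and its neighbours nearly coincide (root mean square differences of 0.0968 to 0.109), while Wnt11, with the widest profile, differs from its nearest by 0.653.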

How the data were processed

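Each deposited value is a linear intensity of a probe set on an array. How the authors normalized and summarized the intensity is not given in the sources used here. Per the labels' series text, dChip 1.3 was used to compare the groups, and the authors kept probe sets whose fold had a lower 90% bound above 1.2 and whose means differed by over 100. The deposited fold changes and their bounds are signed and are treated as a score by the unit used here, with falls negative.

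Names came from Entrez identifiers in those tables, matched to RefSeq symbols of GRCm38.p6, with exactly 1 gene for 661 of 693 probe sets on 430A and 292 of 312 on U74Av2. Values below the 20th percentile of each table were set to it, log2 was taken, and control probe sets and those at the floor on all 5 arrays were left out. Each type was fitted in limma 3.58.1 under R 4.3.3 over all probe sets (lmFit, eBayes, two-sided, Benjamini-Hochberg). The fit over both types used the probe set with the highest mean per gene and counted all 10588 U74Av2 tests in the adjustment of the change; the difference between types was adjusted over 184 genes. The labels state separate pools for each chip. Within a type and for the difference between types, p-values measure the spread between these pools, and the number of arrays limits the precision. For Wnt11 on U74Av2 both minus values were set to the floor, so that untreated pair added no spread to either test. The fit of the change over both types held no interaction, so a gene's difference between types also enters its error there. The SE in that fit was 0.404 for Wnt11, beside 0.13 for Wnt4, 0.14 for Dkk1 and 0.16 for Tcf7. That fit and the test of the difference between types took all arrays as independent. This is not shown, since arrays of the same sample name correlated across types at 0.408 to 0.592. The fits were checked on simulated data.

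The members, the gene lists and the settings were chosen with earlier results of these data known. Named genes were the 4 members, every Wnt list gene with a named probe set, and for each member the 3 genes with the most similar and the 3 with the most opposite profile; 2 of these genes are not reported here. The marker lists covered bud epithelium, metanephric mesenchyme, early nephron, stroma, endothelium and blood; of the 7 endothelial and 11 blood and macrophage markers 0 were named. Acta2 was the 1 stromal marker named on U74Av2, with an intensity of 399 to 513 with GDNF and 507 to 705 without. Normalization, floor, filter, variance model, replicate block and leaving out each array were varied.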

Additional observations from a re-analysis of the deposited data

Results flagged for a closer look

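The change of Wnt11 with GDNF differed between the array types by the interaction test in limma. The difference, U74Av2 minus 430A, was at least 2.67 on the log2 scale (adjusted p = 1.72e-04 over 184 genes), a bound set by the floor because both U74Av2 minus arrays lay below it. With both set to the floor, that untreated pair added no spread to the test. The difference rested on different probe sets, and the part of the probes was not tested. The direction of the change was the same on both types.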

How the results depend on the processing

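With quantile normalization or median centring, all 16 member results kept their direction and their side of the threshold. At the 40th percentile floor, Wnt11 on U74Av2 had log2 2.41 (adjusted p = 0.0725) and its difference between types 1.37, with 0 calls on U74Av2 and 0 for the difference; the rise in the floor itself lowers these bounds. On 430A limma called 30 probe sets with the floor at the 10th percentile, 48 with a trended robust variance and 156 above the median level, where fewer probe sets are tested and Wnt4 (-0.82, adjusted p = 0.0447) and Dkk1 (-0.94, adjusted p = 0.0328) passed. On U74Av2 these last settings called 3 and 4. With correlated sample names 8 genes differed between types, and Wnt11 (2.37) and Dkk1 (-0.74) missed the threshold over both types. Without moderation Wnt11 (2.37), Dkk1 (-0.74) and Tcf7 (0.91, adjusted p = 0.103) missed it, and 0 genes differed between types, Wnt11 at 2.67 with adjusted p = 0.0509; the cause was not tested.

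Leaving out each array gave 0 to 1 calls on U74Av2, 0 calls on 430A and 1 to 5 genes that differed between types, with 5 without U74Av2 minus array 1. Wnt11 on U74Av2 ranged from 3.57 to 3.86 and Dkk1 over both types from -0.83 to -0.67. The Wnt4 difference between types turned from -0.15 to 0.012 without 430A minus array 2 and to 0.14 without U74Av2 minus array 1, within a range of -0.45 to 0.14. An unadjusted p under 0.05 was held by 2588 probe sets on 430A, but by 6729 without minus array 1, 1661 without minus array 2, 1371 without plus array 2 and 1318 with the replicate block. On U74Av2 it was held by 931, but by 2098 without minus array 1, 566 without minus array 2, 517 without plus array 1, 561 without plus array 2 and 430 with the replicate block. A lone minus array is assumed to vary like the plus arrays. With sample number as a replicate block, 2 genes differed between types and Wnt11 on U74Av2 had log2 3.83 (adjusted p = 0.0432); no call of a member changed. The shared numbers are not stated to pair samples: deviations of same-numbered arrays correlated at -0.0153 and -0.623 on 430A and at 0.162 and -0.702 on U74Av2. Arrays of the same sample name on the 2 types correlated at 0.408 to 0.592 over 184 genes, the pairs that the fit with correlated sample names joins. The 3 plus and 2 minus arrays, and Wnt11 below the floor on U74Av2, limit every value here.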
